A study of Mus musculus with 6 samples.

Results

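The genes described here are the chemokine Cxcl12, its receptors Cxcr4 and Ackr3, and 4 further genes: Cxcl14, Cxcl13, Cx3cl1 and the receptor gene Cx3cr1. The 4 are grouped here with the steady-state, or homeostatic, chemokines, which is a label and not a result. All the genes were chosen by symbol, 7 of the 53715 in the deposited gene table. All 7 passed the filter on low counts and were tested. RNA came from cells sorted from the gastrocnemius and soleus muscles of male wild-type C57BL/6J mice aged 14 weeks. The gate kept cells with CD146 on their surface and without CD45 or CD31, and the labels call them pericytes, the cells that wrap capillaries. Electrical stimulation made the crural muscles of 3 mice perform 20 eccentric and 20 concentric contractions within some 10 min, and tissue was taken 3 h later. The other 3 mice were unstimulated sham controls of the same strain, sex and age. Animals were assigned at random, and each group is stated to hold 3 mice, 1 library per sample. The comparison asks whether RNA of these genes differed 3 h after the contractions.

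CXCL12, also called SDF-1, is a secreted chemokine made by stromal, perivascular and endothelial cells. It signals through CXCR4, a G protein-coupled receptor that guides leukocytes and progenitor cells, and it is removed by ACKR3, a scavenging receptor that signals through arrestins rather than G proteins. CXCL14 is a constitutively made chemokine of epithelia and connective tissue, and CXCL13 draws B cells through the receptor CXCR5. CX3CL1, or fractalkine, is a membrane-bound chemokine that can be shed, and its receptor CX3CR1 is carried by monocytes, macrophages and some lymphocytes.

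The Cxcl12 gene makes several proteins that share their first residues and differ at the carboxyl end, so the coding ends of its 3 protein-coding transcripts are shown before any value. The gamma transcript (ENSMUST00000073043.4) encodes 119 residues, the alpha transcript (ENSMUST00000112866.7) 89 and the beta transcript (ENSMUST00000112871.7) 93; the Greek names follow the usual names of proteins of these lengths. Transcript models are those of GENCODE mouse release M21 on build GRCm38, and the sequence was read from the plus strand of chromosome 6. All 3 coding sequences share their first 267 bases. The last 30 of these are printed in lower case, and capitals mark the part particular to each transcript, stop codon included.
Cxcl12 gamma: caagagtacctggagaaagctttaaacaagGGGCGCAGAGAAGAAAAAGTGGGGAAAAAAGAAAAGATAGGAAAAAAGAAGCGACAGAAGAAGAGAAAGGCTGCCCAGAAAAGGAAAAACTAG
Cxcl12 alpha: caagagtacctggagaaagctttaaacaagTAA
Cxcl12 beta: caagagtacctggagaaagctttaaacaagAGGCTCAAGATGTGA

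The capitals span chr6:117176087-117176179 in gamma, 93 bases rich in lysine and arginine codons, chr6:117178584-117178598 in beta, and chr6:117173580-117173582 in alpha. The end of alpha is a stop codon alone. The last exon of the gamma transcript runs from 117176086 to 117181367 and contains all 2784 bases of the last exon of the beta transcript, which make up 88.89% of that transcript. A read from there fits both, and the division of reads between the gamma and beta forms is an estimate of the authors' quantifier.

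The libraries held 17520338 to 23709220 estimated reads, with 34697 to 42737 genes above 0. Levels below are in counts per 1000000 (CPM), the deposited estimated counts divided by library sizes scaled by TMM. Mcam, the gene of CD146, stood at 24.3 to 54.1 CPM in the stimulated libraries and 39.1 to 105 CPM in the sham libraries. The excluded antigens had higher CPM than Mcam in each of the 6 libraries, though CPM does not correct for transcript length. Pecam1 (CD31) lay between 384 and 577 CPM with stimulation and between 524 and 1277 CPM in sham. Ptprc (CD45) lay between 989 and 1035 CPM with stimulation and between 194 and 863 CPM in sham. Every stimulated library lay above every sham library for Ptprc, with a log2 fold change of 0.71 (SE 0.49, edgeR adjusted p = 0.879). Of 10 tested neutrophil markers 10 had higher estimates after stimulation and 0 passed the test, with a summed level of 137 to 230 against 46.7 to 66.5 CPM. Camp was at 0 in sham replicate 2, and the part of these markers in the values below was not tested. Sham replicate 2 stood apart, with the highest Pecam1 and the lowest Ptprc, so the differences of the 7 genes are given with and without it. In such bulk libraries, fewer cells of a type and less RNA per cell cannot be told apart.

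Of the 7 genes, 0 were called at a Benjamini-Hochberg adjusted p of 0.05 by the quasi-likelihood test of edgeR, against 0% of the 26559 genes tested. DESeq2 also called 0 of the 7, where it called 0.279% of all genes higher and 0.576% lower, and limma voom called 0 genes in all. Cxcl12 alone had an unadjusted p under 0.05, as did 7.05% of all genes tested (4.41% lower, 2.64% higher). It was also the only one of the 7 with groups that did not overlap, as 12% of all genes had. Of the 7 estimates, 5 lay below 0 (Cxcl12, Cxcr4, Ackr3, Cx3cl1 and Cx3cr1) and 2 above it (Cxcl14 and Cxcl13), where 52% of all genes lay below 0 and 48% above it. Without sham replicate 2, 4 of the 7 lay below 0.

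**Figure D1:**
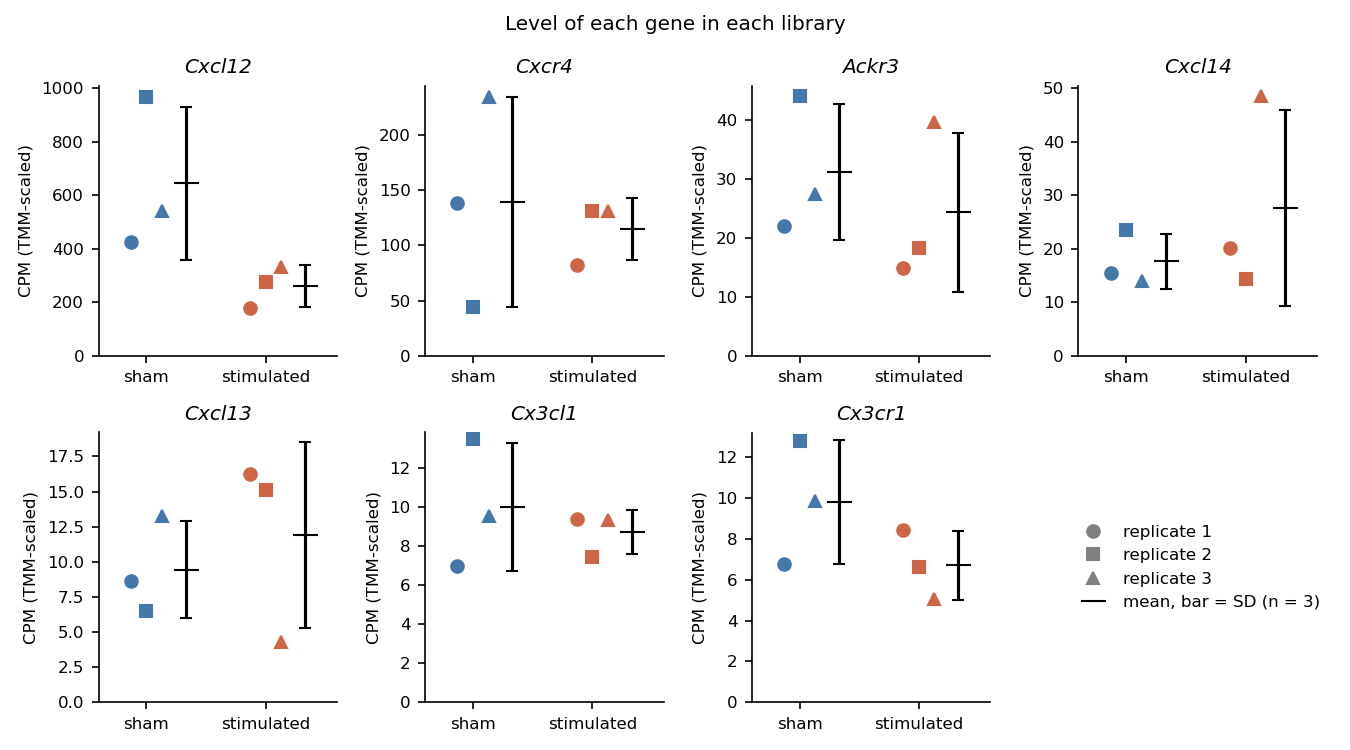
Level of each of the 7 genes in CPM in the 3 sham and 3 stimulated libraries, with the symbol shape giving the replicate and the black bar the mean and SD (n = 3). For Cxcl12 all stimulated libraries (177 to 331 CPM) lie below all sham libraries (426 to 969 CPM), whereas the groups overlap for the other 6 genes.

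Cxcl12 (ENSMUSG00000061353.11, chr6:117168535-117181367, plus strand) was the ligand with the most RNA per transcript length. It stood at 177, 277 and 331 CPM in stimulated replicates 1 to 3 and at 426, 969 and 542 CPM in sham replicates 1 to 3. Every stimulated library lay below every sham library, and sham replicate 2 was far above the rest. The stimulated libraries averaged 262 ± 78.1 CPM and the sham libraries 645 ± 286 CPM (SD, n = 3 each). The log2 fold change was -1.30 (SE 0.38, 95% interval -2.17 to -0.43), which is a sham level 2.47 times the stimulated one (interval 1.35 to 4.50). The unadjusted p was 0.00799 and the adjusted p by edgeR 0.554, so the difference did not pass over all genes. By DESeq2 the log2 fold change was -1.26 with an adjusted p of 0.0691, the lowest among the alternatives, which ran up to 1. Without sham replicate 2 the log2 fold change was -0.88 (SE 0.32).

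All 3 of the protein-coding Cxcl12 transcripts took reads, and most went to the gamma transcript, whose long last exon is mostly untranslated. In estimated reads per 1000000 (RPM), gamma had 175, 266 and 272 in the stimulated libraries and 437, 920 and 487 in the sham libraries. Alpha had 14.3, 21.6 and 23.5 against 33.7, 63.8 and 32.3. For both of these transcripts the groups did not overlap, as for the gene. Beta had 7.07, 6.88 and 30.3 against 52.9, 100 and 13.3. Here the groups overlapped, with stimulated replicate 3 above sham replicate 3. A transcript with a retained intron and no annotated protein had 12.7, 10.9 and 14.5 against 14.0, 46.9 and 18.6, and its groups overlapped too.

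As a share of the gene's reads, the gamma transcript held 83.6 ± 3.58% (SD, n = 3) after stimulation and 83.7 ± 4.06% (SD, n = 3) in sham. The lower Cxcl12 of the stimulated libraries therefore came with much the same division of reads onto gamma. The beta transcript ranged from 2.25 to 8.90% of the reads in the stimulated libraries and from 2.41 to 9.84% in the sham libraries. The gamma transcript is 5627 bases long and alpha 1878, so a share of reads is not a share of transcript molecules. With levels taken per transcript length, gamma held 62.4 ± 4.17% (SD, n = 3) after stimulation and 63.4 ± 6.27% (SD, n = 3) in sham. Alpha held 20.8 ± 1.22% and 18.2 ± 1.09% on that scale (SD, n = 3 each). Reads were counted over the whole transcripts, so all these shares describe annotated transcripts and not proteins.

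**Figure D2:**
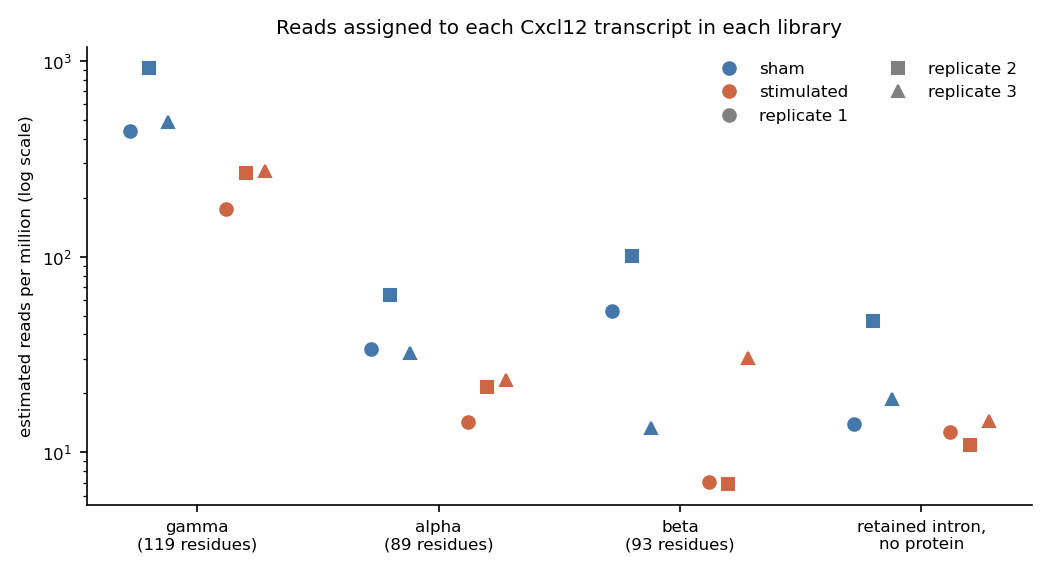
Estimated reads per 1000000 (RPM) assigned to each annotated Cxcl12 transcript, on a log scale, in the 3 sham and 3 stimulated libraries, with symbol shape for the replicate. The gamma transcript takes the most reads in every library, and the groups are apart for gamma and alpha and overlap for the others.

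Marker genes of the vessel wall had lower estimates in the same libraries, although 0 passed the test. Of 16 endothelial markers, 16 had lower estimates after stimulation, with a median log2 fold change of -1.14. Their summed level was 3124 to 4835 CPM in the stimulated libraries and 5074 to 12990 CPM in the sham libraries. Pericyte markers had lower estimates in 14 of 15 (median -0.93, summed level 221 to 489 against 390 to 825 CPM), and smooth muscle markers in 8 of 8 (median -1.04, summed level 103 to 254 against 177 to 469 CPM). The difference between log2 Cxcl12 and the mean log2 level of the endothelial markers was 0.49, 0.97 and 0.81 in the stimulated libraries and 1.08, 0.91 and 0.81 in the sham libraries. These values overlapped between the groups and differed by -0.18 in their means, while the log2 CPM of Cxcl12 itself differed by -1.26. Taken from the pericyte markers, the values also overlapped, and their means differed by -0.42. Taken from the smooth muscle markers, they were 4.44, 4.63 and 4.43 with stimulation against 5.13, 4.78 and 4.90 in sham. There the means differed by -0.44, and every stimulated library lay below every sham library. Once each was centred over the 6 libraries, Cxcl12 lay 0.19 (root mean square, log2) from the endothelial markers, 0.25 from smooth muscle and 0.28 from pericyte markers. Its own spread was 0.77. The endothelial list was the nearest of 14 cell type lists, and the part these markers play in the Cxcl12 values was not tested. In this list and the others below that are given with a summed level, 0 of the markers tested were at 0 in any library.

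**Figure D3:**
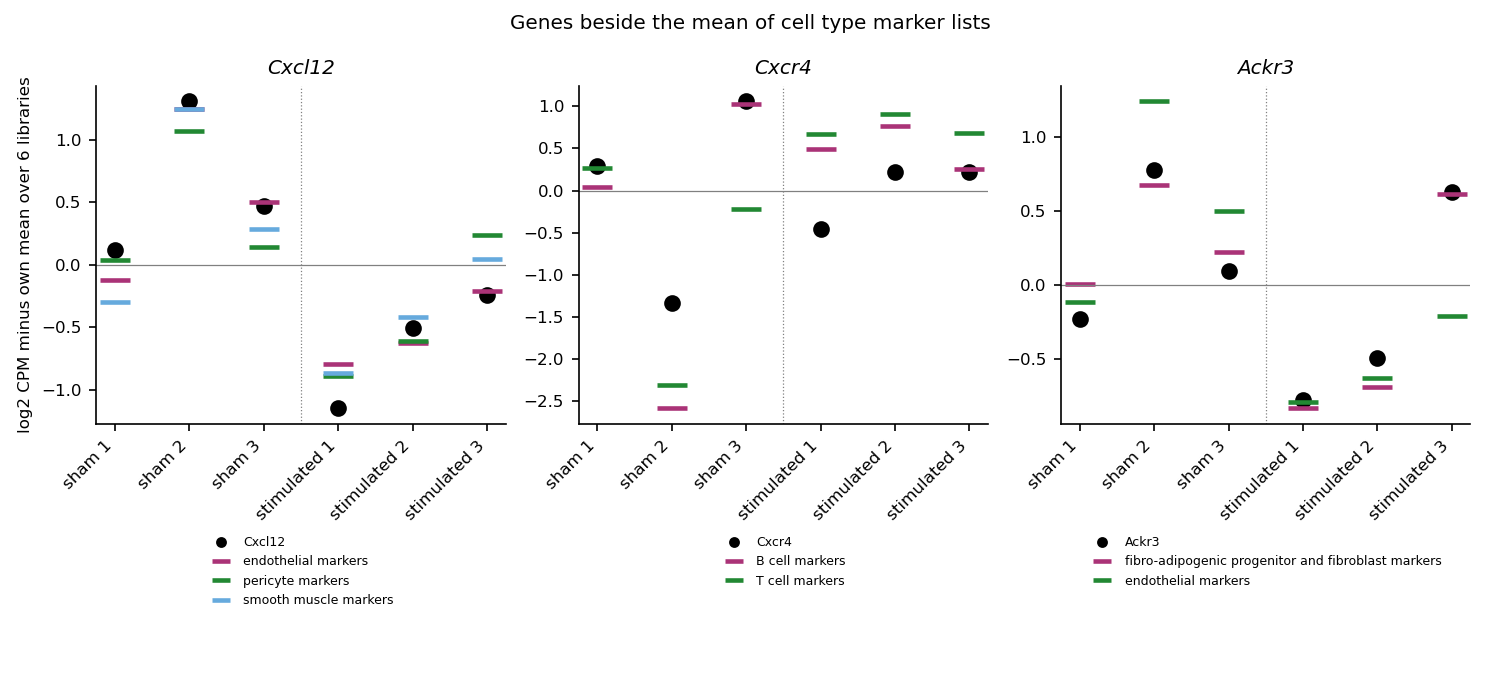
Log2 CPM of Cxcl12, Cxcr4 and Ackr3 (black points) in each library, minus the gene's mean over the 6 libraries, beside the mean of cell type marker lists treated the same way (coloured bars). Cxcl12 and its endothelial bar are both highest in sham replicate 2 and lowest in stimulated replicate 1, Cxcr4 and the 2 lymphocyte bars are lowest in sham replicate 2, and Ackr3 lies close to the fibroblast bar.

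Cxcr4 (ENSMUSG00000045382.6, chr1:128588199-128592293, minus strand), the signalling receptor, followed another order of libraries than its ligand. It stood at 82.0, 131 and 131 CPM in the stimulated libraries and at 138, 44.7 and 235 CPM in the sham libraries. The lowest and the highest value were both in sham, with sham replicate 2, the library highest in Cxcl12, lowest in Cxcr4. The means were 115 ± 28.3 and 139 ± 94.97 CPM (SD, n = 3 each). This gave a log2 fold change of -0.28 (SE 0.51, 95% interval -1.43 to 0.87, edgeR adjusted p = 0.983). The estimate was -0.70 without sham replicate 2 and 0.34 without sham replicate 3, so its direction turned with 1 library. The interval is wide, and a like level in the groups was not shown.

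Lymphocyte markers were also low in sham replicate 2. The summed level of 8 B cell markers was 268 CPM there, against 1640 and 3086 CPM in the other sham and 1823 to 2643 CPM in the stimulated libraries, with higher estimates after stimulation in 8 of 8 and 0 past the test. For 10 T cell markers it was 79.1 CPM there, 357 and 446 CPM in the other sham and 591 to 704 CPM in the stimulated libraries, with higher estimates in 10 of 10 and 0 past the test. The B cell list was the nearest of the 14 lists to Cxcr4, but at 0.69 (root mean square, log2) it lay almost as far away as the gene's own spread of 0.74. The Schwann cell list came next at 0.73, and the T cell list, in place 5, lay at 0.87. The part of any of these cells in the Cxcr4 values was not tested. The longer of its annotated transcripts held 89.4 to 97.5% of the gene's reads.

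Ackr3 (ENSMUSG00000044337.5, chr1:90203980-90216751, plus strand), the scavenging receptor, stood at 15.0, 18.3 and 39.7 CPM in the stimulated libraries and 22.0, 44.1 and 27.4 CPM in the sham libraries. Stimulated replicate 3 lay among the sham values, close to the highest of them, while the other stimulated libraries lay below all sham libraries. The means were 24.3 ± 13.5 and 31.2 ± 11.5 CPM (SD, n = 3 each). The log2 fold change was -0.36 (SE 0.41, 95% interval -1.29 to 0.58, edgeR adjusted p = 0.967). It was -0.90 without stimulated replicate 3 (adjusted p = 0.727) and -0.01 without sham replicate 2. Markers of fibro-adipogenic progenitors and fibroblasts, the connective tissue cells of muscle, had the same order of extremes. Their summed level was 1176, 1412 and 2995 CPM in the stimulated libraries and 1903, 3999 and 2833 CPM in the sham libraries, with 12 of 14 lower and 0 past the test. Ackr3 lay 0.15 (root mean square, log2) from their mean where its own spread was 0.56, the closest of the 14 lists, and their part in the Ackr3 values was not tested.

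**Figure D4:**
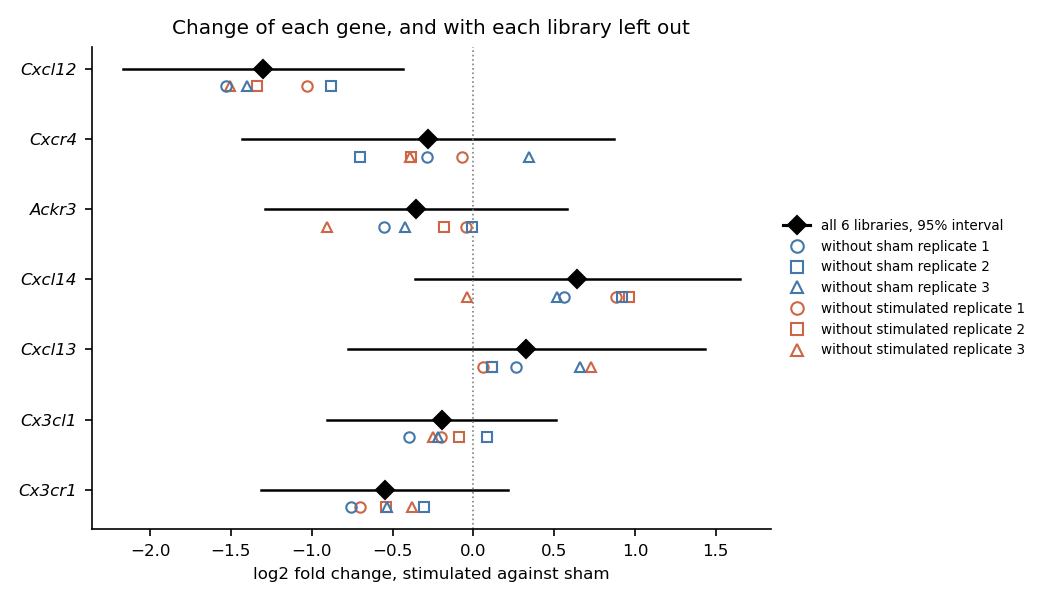
Log2 fold change of each gene, stimulated against sham, with its 95% interval from all 6 libraries (black) and the estimate with each library left out (open symbols). The interval of Cxcl12, -2.17 to -0.43, is the only one that does not include 0, and estimates of Cxcr4, Cxcl14 and Cx3cl1 fall on both sides of 0 as libraries are left out.

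Cxcl14 (ENSMUSG00000021508.11, chr13:56288643-56296551, minus strand) stood at 20.1, 14.4 and 48.4 CPM in the stimulated libraries and 15.5, 23.6 and 14.0 CPM in the sham libraries. Apart from the high stimulated replicate 3, the groups covered the same range. The means were 27.6 ± 18.2 and 17.7 ± 5.13 CPM (SD, n = 3 each). This gave a log2 fold change of 0.64 (SE 0.45, 95% interval -0.36 to 1.65, edgeR adjusted p = 0.878). Without stimulated replicate 3 it was -0.04, and without sham replicate 2 it was 0.92. Stimulated replicate 3 also had the highest summed level of 8 myofibre markers, 155 CPM against 23.8 to 42.3 CPM in the other 5 libraries, and 8 of 8 of those markers had higher estimates after stimulation with 0 past the test. That library was also the highest of the 6 in the summed markers of tenocytes, satellite cells and Schwann cells. The myofibre list was the nearest of the 14 to Cxcl14, at 0.36 against a spread of 0.62. The Schwann cell list came next at 0.41, and the part of any of these cells in the Cxcl14 values was not tested.

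The Cxcl14 reads were divided between 2 transcripts. The full-length transcript encodes 99 residues, and the short one lacks a 114-base exon at chr13:56292461-56292574 and encodes 61. The full-length transcript had 7.99, 9.74 and 38.0 RPM in the stimulated libraries and 7.18, 12.7 and 5.32 in the sham libraries, and the short one had 12.0, 5.87 and 11.8 RPM against 9.28, 11.6 and 7.69 RPM. The high value of stimulated replicate 3 thus lay in the full-length transcript, and the short transcript was within the range of the other libraries there. The full-length transcript held 59.6 ± 18.3% (SD, n = 3) of the reads after stimulation and 45.6 ± 5.95% (SD, n = 3) in sham, a difference smaller than the spread among the stimulated libraries.

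Cxcl13 (ENSMUSG00000023078.6, chr5:95956951-95961068, plus strand), the B cell attractant, stood at 16.3, 15.1 and 4.29 CPM in the stimulated libraries and 8.62, 6.499 and 13.2 CPM in the sham libraries. Stimulated replicate 3 was the lowest of all and the other stimulated libraries the highest. The means were 11.9 ± 6.60 and 9.45 ± 3.44 CPM (SD, n = 3 each). The log2 fold change was 0.33 (SE 0.49, 95% interval -0.78 to 1.44, edgeR adjusted p = 0.973). It was 0.12 without sham replicate 2 and 0.73 without stimulated replicate 3. The gene has 1 annotated transcript, which encodes 109 residues. Cxcr5, the receptor for CXCL13 on B cells, was looked up after the values were seen. It stood at 107, 121 and 88.9 CPM in the stimulated libraries and 122, 7.47 and 137 CPM in the sham libraries, with the same low sham replicate 2 as the B cell markers. Its log2 fold change was 0.25 (SE 0.76), and -0.29 (SE 0.25) without that library. Ligand and receptor did not share their extremes: Cxcl13 was lowest in stimulated replicate 3, Cxcr5 in sham replicate 2.

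Cx3cl1 (ENSMUSG00000031778.13, chr8:94772009-94782427, plus strand), the fractalkine gene, varied least of the 7 over the libraries (log2 spread 0.30). It stood at 9.38, 7.44 and 9.37 CPM in the stimulated libraries and 6.98, 13.5 and 9.56 CPM in the sham libraries. All stimulated values fell inside the range of the sham ones. The means were 8.73 ± 1.12 and 10.0 ± 3.28 CPM (SD, n = 3 each). This gave a log2 fold change of -0.20 (SE 0.31, 95% interval -0.91 to 0.51, edgeR adjusted p = 0.982). It was 0.08 without sham replicate 2, and -0.51 when reads were summed over the transcripts in place of the gene table. The deposited gene values weigh transcripts by length, and Cx3cl1 has several short ones: the transcript of the 395-residue protein held 78.5 to 89.6% of the reads and 24.5 to 37.2% of the gene's transcripts per 1000000 (TPM).

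Cx3cr1 (ENSMUSG00000052336.7, chr9:119901616-120069879, minus strand), the fractalkine receptor, stood at 8.43, 6.60 and 5.04 CPM in the stimulated libraries and 6.75, 12.8 and 9.82 CPM in the sham libraries. Sham replicate 1 lay between the stimulated values, so the groups overlapped. The means were 6.69 ± 1.70 and 9.79 ± 3.02 CPM (SD, n = 3 each). The log2 fold change was -0.55 (SE 0.34, 95% interval -1.31 to 0.22, edgeR adjusted p = 0.844). It was -0.31 without sham replicate 2. All 3 of its annotated transcripts encode the same length of protein, 354 residues, and 1 of them held 73.9 to 97.8% of the reads. Monocyte and macrophage markers, whose cells carry CX3CR1, had lower estimates in 11 of 14 with 0 past the test and a summed level of 808, 546 and 617 CPM in the stimulated libraries and 394, 1298 and 727 CPM in the sham libraries. Both were highest in sham replicate 2 and next in sham replicate 3 for Cx3cr1, but next in stimulated replicate 1 for the markers. This list was the nearest of the 14 to Cx3cl1 (0.23, own spread 0.30) and to Cx3cr1 (0.37, own spread 0.43), and its part in either was not tested.

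Levels of different genes were compared per transcript length, as TPM summed over each gene's transcripts. The values are small because 88.3 to 91.5% of all TPM lay on transcripts under 200 bases, so the order is read within libraries. The means over the 6 libraries, given for scale, were Cxcl12 (4.97 TPM), Cxcr4 (4.08 TPM), Cxcl13 (0.777 TPM), Ackr3 (0.700 TPM), Cxcl14 (0.593 TPM), Cx3cl1 (0.279 TPM) and Cx3cr1 (0.0885 TPM). Cxcl12 and Cxcr4 were above the other 5 genes in every library, and Cx3cr1 was below all of them in every library. Cx3cl1 was below Cxcl13, Ackr3 and Cxcl14 in every library. Those 3 genes did not differ beyond their spread: Cxcl13 ran from 0.289 to 1.18 TPM, Ackr3 from 0.338 to 1.53 TPM and Cxcl14 from 0.267 to 1.11 TPM. A short transcript with 3.53 to 6.95% of the Ackr3 reads carried 33.5 to 47.8% of its TPM, so the place of Ackr3 rests partly on few reads.

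Ligand and receptor of the Cxcl12 axis were close on that scale. The TPM of Cxcl12 divided by that of Cxcr4 was 0.617, 0.603 and 0.722 in the stimulated libraries and 0.879, 6.19 and 0.659 in the sham libraries. Cxcr4 was therefore the higher of the pair in 5 of 6 libraries, sham replicate 2 being the exception, and the groups overlapped. The TPM of Cxcr4 divided by that of Ackr3 was 7.91, 10.3 and 4.77 against 9.11, 1.47 and 12.4. The signalling receptor exceeded the scavenger in all 6 libraries, least in sham replicate 2.

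The TPM of Cxcl12 was also set beside that of the other ligands, after the values were seen and with no test. Divided by Cxcl14 it was 3.37, 7.33 and 2.61 with stimulation against 10.5, 15.7 and 14.7 in sham, and divided by Cx3cl1 it was 6.5, 12.8 and 12.2 against 21.1, 24.7 and 19.5. Both of these ratios were lower in every stimulated library than in any sham library. Divided by Cxcl13 it was 1.41, 2.37 and 10.0 against 6.38, 19.3 and 5.28, and here the groups overlapped. The ratio of Cxcl12 to another gene, computed on CPM, had such groups for 55.8% of all other genes tested, so the separation is not particular to Cxcl14 and Cx3cl1.

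The genes whose pattern over the 6 libraries lay nearest to each of the 7 were found by the root mean square difference in log2 CPM, centred per gene, among 13542 genes. For Cxcl12 these were Prickle1 (0.05), Ecscr (0.11), an endothelial surface protein gene, and Uaca (0.11). Ackr3 lay nearest to Kalrn (0.06), Fbn1 (0.06), which encodes the matrix protein fibrillin-1, and Loxl1 (0.08), which encodes an enzyme that crosslinks elastic fibres. Cxcr4 lay nearest to Irs2 (0.12), Traf4 (0.13) and Plaur (0.15). Cxcl13 had the most distant neighbours of the 7, among them Tcrg-C1 (0.25), a T cell receptor gamma constant gene, and Cd163l1 (0.27). For Cxcl14 they were Flnc (0.17), the muscle filamin gene, Medag (0.17) and Fosl1 (0.19). Cx3cl1 lay nearest to Txn1 (0.04), Sowahc (0.05) and Purg (0.08), and Cx3cr1 to Vangl2 (0.06), Lrsam1 (0.07) and Cyp27a1 (0.08). With so many candidates and 6 libraries these are descriptions, with no test.

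Genes that act with the 7 were taken from 6 lists, 62 genes in all, of which 61 were in the gene table and 59 were tested. By edgeR 0 of the 59 were called, the smallest adjusted p being 0.504, and 33 estimates lay above 0 and 26 below. The median log2 fold change was 0.08, beside -0.02 over all genes tested. At an unadjusted p under 0.05 there were 2 higher and 5 lower genes of 59, beside 2.64% and 4.41% of all genes tested. These counts ran from 0 (without stimulated replicate 2) to 5 (without sham replicate 3) higher genes, and from 2 (without stimulated replicate 1 or 2) to 7 (without sham replicate 1) lower ones. They were 1 higher and 4 lower without sham replicate 2. The genes are named by that threshold.

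Of 8 factors listed as regulators of Cxcl12 or Cxcr4 transcription (a label and not a result), 6 had lower and 2 higher estimates. Their median log2 fold change was -0.66 and 0 were called. Of these, 4 had groups that did not overlap, all lower after stimulation, where 5.89% of all genes tested had such groups. The list was chosen with earlier results of these data known, so no enrichment is read from that count. Ebf3, which maintains CXCL12-producing stromal cells in bone marrow, stood at 24.3, 36.4 and 33.5 CPM in the stimulated libraries and 53.2, 139 and 62.3 CPM in the sham libraries, a log2 fold change of -1.43 (SE 0.39, edgeR adjusted p = 0.504). DESeq2 alone called it, at -1.39 (SE 0.40, adjusted p = 0.0456). Its relative Ebf2 stood at 6.69, 3.498 and 7.91 against 11.9, 20.3 and 10.7 CPM, a log2 fold change of -1.24 (SE 0.39, edgeR adjusted p = 0.589). Foxc1, another factor of the marrow stroma, stood at 10.2, 8.48 and 11.5 against 14.4, 28.8 and 14.1 CPM, and Epas1, a hypoxia-inducible factor abundant in endothelium, at 458, 532 and 739 against 750, 1618 and 864 CPM. Their log2 fold changes were -0.92 (SE 0.34) and -0.90 (SE 0.37). Without sham replicate 2 the log2 fold changes were -0.87 for Ebf3, -0.89 for Ebf2, -0.49 for Foxc1 and -0.48 for Epas1. All 4 were highest in sham replicate 2, as were Cxcl12 and the endothelial markers, whose part in these values was not tested.

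Among 10 receptor and ligand partners of the axis, 5 had higher and 5 lower estimates, with a median of -0.10 and 0 called. Ramp2, which pairs with Calcrl to form the adrenomedullin receptor of endothelium (ACKR3 also scavenges adrenomedullin), stood at 45.6, 41.5 and 60.0 CPM in the stimulated libraries and 53.7, 123 and 81.7 CPM in the sham libraries. Its groups overlapped at sham replicate 1, with a log2 fold change of -0.81 (SE 0.33, edgeR adjusted p = 0.669), or -0.46 without sham replicate 2.

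Of 22 genes of CXCR4 and ACKR3 signalling and trafficking, 14 had higher and 8 lower estimates, with a median of 0.30 and 0 called. Arrb2, a beta-arrestin gene, stood at 37.5, 52.2 and 34.3 CPM in the stimulated libraries and 25.5, 22.5 and 29.5 CPM in the sham libraries. All stimulated values lay above all sham values, with a log2 fold change of 0.68 (SE 0.25, edgeR adjusted p = 0.647), or 0.60 without sham replicate 2. It was 1 of 3 genes on this list with such groups, where 6.12% of all genes tested had them. This list too was chosen with earlier results known, so no enrichment is read from it. The other beta-arrestin gene on the list had overlapping groups and a log2 fold change of -0.15 (SE 0.27).

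The 15 other homeostatic chemokines and receptors had 12 tested members, 8 with higher and 4 with lower estimates, a median of 0.20 and 0 called. Ccl25, a chemokine of thymus and gut, stood at 15.3, 14.2 and 14.5 CPM in the stimulated libraries and 10.8, 9.21 and 8.09 CPM in the sham libraries, without overlap, a log2 fold change of 0.65 (SE 0.25, edgeR adjusted p = 0.668), and again 0.65 without sham replicate 2. The proteases that shed fractalkine had log2 fold changes of -0.26 (SE 0.25) for Adam10, 0.29 (SE 0.24) for Adam17 and 0.05 (SE 0.35) for Ctss. Without sham replicate 2 they were -0.17, 0.29 and -0.14, so that of Ctss turned. Ctss was 0.55 without sham replicate 3. Of the atypical chemokine receptors, which bind chemokines without G protein signalling, Ackr2 had 1.21 (SE 0.68), Ackr1 -1.09 (SE 0.58) and Ackr4 -0.45 (SE 0.49), and 0 of 4 were called. Single libraries moved each of these: Ackr1 was -0.23 without sham replicate 1, Ackr2 was 0.66 without stimulated replicate 2, 0.72 without sham replicate 1 and 1.75 without sham replicate 2, and Ackr4 was 0.01 without sham replicate 3 and -0.80 without sham replicate 2.

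**Figure D5:**
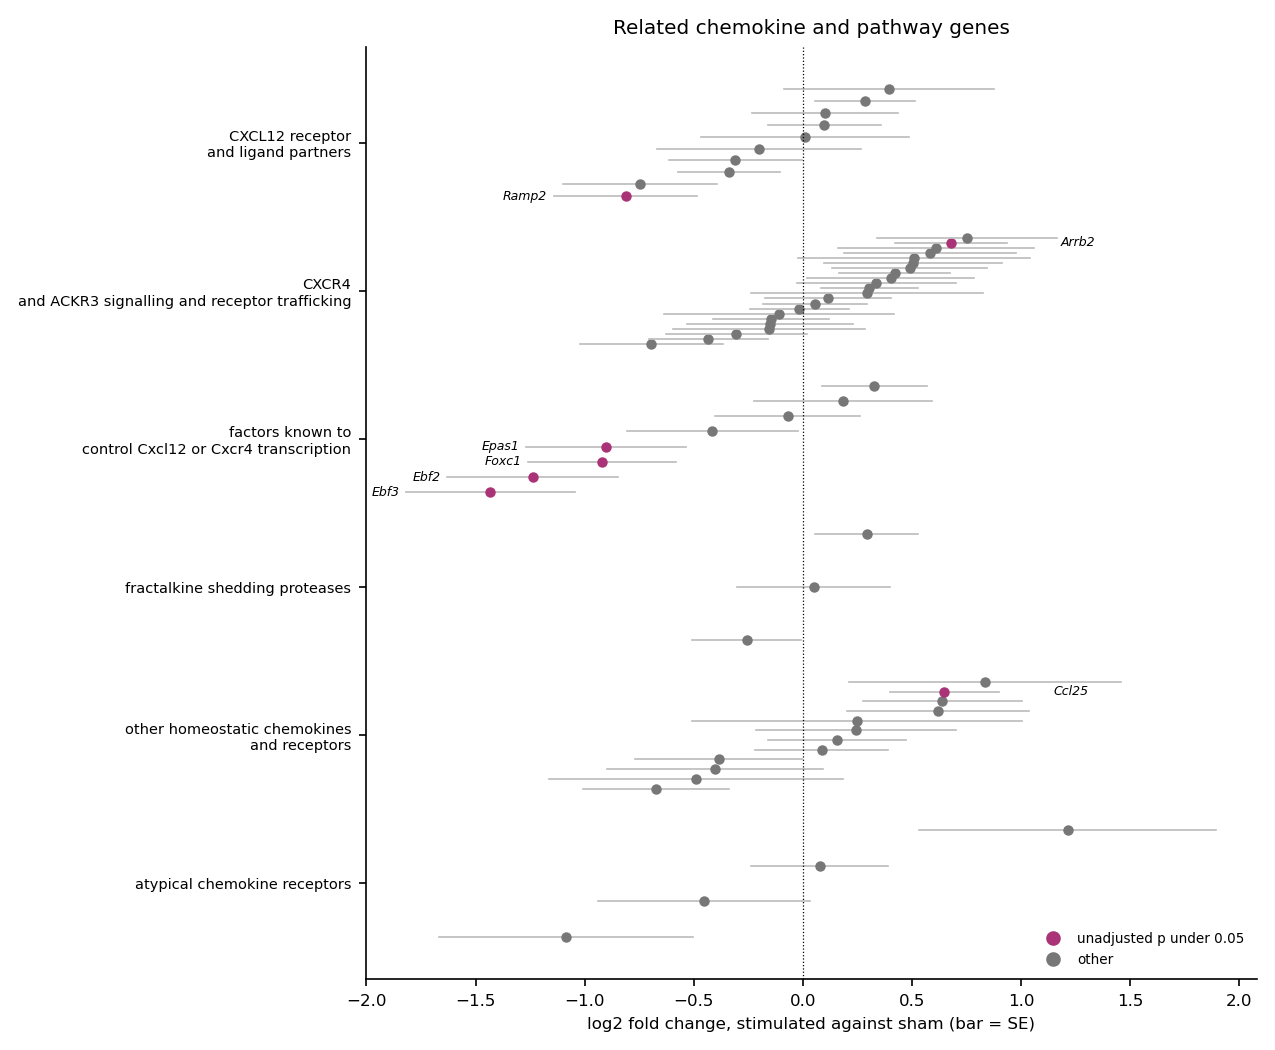
Log2 fold change, stimulated against sham, with its SE for the 59 tested genes of the 6 lists, where purple marks an unadjusted p under 0.05. The purple points are 5 lower genes (Ebf3, Ebf2, Foxc1, Epas1 and Ramp2) and 2 higher ones (Arrb2 and Ccl25), and 0 of the 59 had an adjusted p under 0.05.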

How the data were processed

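Total RNA of sorted cells was sequenced after a stranded low-input library kit, per the labels' protocols. Per the submitters' processing notes, the build was GRCm38 and the tools were Salmon 0.8.2, Trimmomatic 0.36, bcl2fastq 2.17.1.14, edgeR and R 3.5.1. The authors deposited gene-level estimated counts and, per the file headers, TPM and estimated counts of each transcript. After scaling per library, gene values were proportional to TPM (within 1% in 100% of 14096 genes), so they are not plain read sums.

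Estimated counts were rounded, filtered with filterByExpr (minimum count 10, minimum total 15) and scaled by TMM. Libraries were grouped by sample title. The robust quasi-likelihood test of edgeR 4.0.16 (R 4.3.3) compared stimulated with sham without covariates, adjusted by Benjamini-Hochberg over 26559 genes at 0.05. The common coefficient of biological variation was 0.398. Single values were not tested by exact permutation, whose smallest two-sided p for 3 against 3 is 0.1. Each library is taken as 1 animal from the stated group sizes. Otherwise the p-values measure only the spread between these samples.

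The members and lists were chosen with earlier results of these data known. All 7 members are named, and of each list the genes with an unadjusted p under 0.05, or else up to 3 with the smallest p. Likeness used a mean log2 CPM of at least 1 (prior count 2), and 1 gene it named is not reported here. Alternatives were DESeq2 1.42.0, limma 3.58.1 voom, RLE size factors, no filter or 1 CPM in 3 libraries, omission of each library, a block for the replicate number, transcript reads summed per gene, omission of mitochondrial and ribosomal RNA genes, and a threshold of 0.1. DESeq2 gave no adjusted p for 6724 genes. The fit was tested on simulated counts. No libraries were duplicates, so all 6 were counted.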

Additional observations from a re-analysis of the deposited data

How the results depend on the processing

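Cxcl12, Ackr3, Cxcl13 and Cx3cr1 kept the direction of their estimates, and stayed on the same side of the threshold, under all 15 alternatives each. Estimates of the other 3 genes turned once each: Cxcr4 to 0.34 without sham replicate 3, Cxcl14 to -0.038 without stimulated replicate 3 and Cx3cl1 to 0.083 without sham replicate 2, none of them past the threshold; the cause was not tested. With each library left out in turn, the log2 fold changes ran from -1.53 to -0.88 for Cxcl12 (edgeR adjusted p 0.282 to 1), -0.70 to 0.34 for Cxcr4, -0.90 to -0.01 for Ackr3, -0.04 to 0.96 for Cxcl14, 0.06 to 0.73 for Cxcl13, -0.40 to 0.08 for Cx3cl1 and -0.76 to -0.31 for Cx3cr1. The number of genes called over the whole table was 74 higher and 153 lower by DESeq2, 44 higher and 65 lower of 48844 without a filter, 3 higher with RLE size factors, 3 higher at a threshold of 0.1, 1 higher with counts summed from transcripts, and 0 to 1 higher and 0 to 0 lower with a library left out (1 without stimulated replicate 3). Of the related chemokine and pathway genes, DESeq2 called 1 lower, Ebf3. At an unadjusted p under 0.05, edgeR gave 1872 genes. With the replicate number as a block, 0 genes were called, 2 pathway genes were lower at an unadjusted p under 0.05 in place of 5, and Cxcl12 had a log2 fold change of -1.26 (edgeR adjusted p = 0.587). Same-numbered libraries did not all deviate together (correlations of 0.317, -0.161 and 0.128 over genes), and 3 of 6 libraries correlated best with their own number. With 3 libraries per group these values cannot show whether same-numbered libraries share more than a number. Depth was 17520338 reads or more. With 3 libraries per group and a median SE of 0.399 over all genes, intervals of the 7 genes remain wide.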

Other observations

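Some shares of reads were looked at after the data were seen and carry no test. The alpha transcript of Cxcl12 held 6.82, 7.08 and 6.91% of the gene's reads with stimulation against 6.27, 5.64 and 5.86% in sham. Its share did not overlap between the groups, although its reads relative to the library were lower after stimulation. The full-length fractalkine transcript held 81.1, 78.5 and 82.0% of the Cx3cl1 reads with stimulation against 84.7, 89.6 and 84.7% in sham, again without overlap, and the rest went to short transcripts. These are 2 of 20 annotated transcripts of the 7 genes, among them the sole transcript of Cxcl13, whose share cannot vary. Of all tested genes 12% had levels that did not overlap between the groups, but levels of genes are not shares of reads. Shares were not computed for transcripts of other genes, so nothing particular to these transcripts is read from them.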
